A study of Mus musculus with 10 samples.

Results

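The glucuronosyl-, sulfo- and glutathione transferases are the enzymes that couple foreign compounds, hormones, bile acids and reactive by-products of metabolism to a water-soluble group. Their transcripts were read in male ICR mice, an outbred stock, aged 4 or 28 months. Liver and spleen were sampled along with jejunum, ileum and distal colon, the 3 gut segments. Members were all probe sets whose platform annotation named a single gene with a symbol starting Ugt1a, Ugt2a, Ugt2b, Ugt3a, Sult1, Sult2, Gsta, Gstm, Gstp, Gstt or Gsto. This rule, which used no measured value, found 47 of 45101 probe sets. They represented 37 of the 18194 genes with a single-gene probe set, namely 10 glucuronosyltransferases (UGT), 9 sulfotransferases (SULT) and 18 glutathione transferases (GST). The UGT class as counted here includes Ugt3a1 and Ugt3a2, whose family uses sugar donors other than UDP-glucuronate. No Ugt1a gene had a probe set of its own.

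All mice ate the AIN-93 diet. The 4-month animals had been acquired when 2 months old and the 28-month animals when 8 months old. Every array, of the Affymetrix Mouse Genome type, held a pool of equal RNA shares from several animals, 6 for the younger age and 9 for the older. There was thus no replicate and no value per animal, and the place along each intestinal segment was not given. The 3 intestinal arrays of 28 months carry titles and numbers in a series of their own, which cannot be told apart from age. Marker genes of other sites read high on several arrays, those of the upper small intestine on the 4-month ileum array, and those of pancreas on both jejunum arrays and the 4-month spleen array, with lower sums in distal colon. Their values are given with the results. Signals are in arbitrary units after each array was scaled to a trimmed mean of 500, and signals below 111 units, the median of all values, were treated as being at a floor. The signal of a probe set depends on its probes, so levels are compared between arrays and never between genes.

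UGTs sit in the membrane of the endoplasmic reticulum. Apart from the Ugt3a forms, they transfer glucuronic acid from UDP-glucuronate to substrates such as bilirubin, steroids, bile acids and drugs. SULTs are cytosolic and transfer sulfate from the donor PAPS, and the cytosolic GSTs add the tripeptide glutathione to electrophiles. Liver carries out most of this conjugation, and the intestinal epithelium performs it on compounds as they are absorbed. Several of the genes lie in clusters of related copies. In the RefSeq order, chromosome 5 holds Ugt2b34, Ugt2b1, Ugt2b35, Ugt2b36, Ugt2b5, Ugt2b37, Ugt2a3 and Ugt2b38, followed by Sult1b1, Sult1d1 and Sult1e1. Chromosome 3 holds the 7 Gstm genes and chromosome 10 the 4 Gstt genes.

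The Ugt2b promoters are shown because these neighbouring genes share a sequence before the transcription start and yet had different tissue patterns. All 37 members were matched to RefSeq (GRCm38.p6) by symbol, and 33 had a promoter in the table. All patterns of 4 bases, a gap of 0 to 6 free bases and 5 further bases were listed for the 250 bases before the start of the 7 Ugt2b members, and 1 pattern, GTTANNNNTTAAC (N is any base), was present in all 7. On either strand it was found in 56 of 32851 promoters, or 0.170%, and Ugt3a1 was the only member outside the Ugt2b group to hold it. Each window below holds the 100 bases before the start, read 5′ to 3′ on the gene's own strand with the match in capitals. They lie at chr5:86926504-86926603 (Ugt2b1), chr5:86906938-86907037 (Ugt2b34), chr5:87000760-87000859 (Ugt2b35), chr5:87092556-87092655 (Ugt2b36), chr5:87140341-87140440 (Ugt2b5), chr5:87254789-87254888 (Ugt2b37) and chr5:87424204-87424303 (Ugt2b38), with Ugt2b35 on the plus strand and the others on the minus strand.
Ugt2b1: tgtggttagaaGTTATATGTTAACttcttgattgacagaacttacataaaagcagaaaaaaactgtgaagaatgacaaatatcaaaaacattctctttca
Ugt2b34: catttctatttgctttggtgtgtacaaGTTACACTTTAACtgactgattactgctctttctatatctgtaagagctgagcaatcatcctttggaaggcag
Ugt2b35: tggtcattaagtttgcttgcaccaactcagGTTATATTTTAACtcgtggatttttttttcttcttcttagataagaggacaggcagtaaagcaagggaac
Ugt2b36: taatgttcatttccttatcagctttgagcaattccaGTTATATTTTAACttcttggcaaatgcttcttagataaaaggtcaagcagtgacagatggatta
Ugt2b5: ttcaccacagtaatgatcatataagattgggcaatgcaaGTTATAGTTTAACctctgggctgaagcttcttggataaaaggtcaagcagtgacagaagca
Ugt2b37: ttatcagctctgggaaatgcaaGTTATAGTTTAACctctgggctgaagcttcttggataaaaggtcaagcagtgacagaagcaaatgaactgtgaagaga
Ugt2b38: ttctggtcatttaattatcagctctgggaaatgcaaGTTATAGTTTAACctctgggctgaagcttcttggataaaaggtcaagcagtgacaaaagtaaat

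The windows of Ugt2b5, Ugt2b37 and Ugt2b38 are near copies. The longest run of identical bases was 77 between Ugt2b37 and Ugt2b38, 68 between Ugt2b5 and Ugt2b37, and 62 between Ugt2b5 and Ugt2b38. Ugt2b1 and Ugt2b34 shared at most 11 and 8 consecutive bases with any other window. The pattern was thus chosen from these promoters, and a match is a description of letters, not a site at which binding was measured. Ugt2a3, which lies between Ugt2b37 and Ugt2b38, lacked those letters but held the shorter GTTAAT in 2 copies, a sequence found in 6.43% of all promoters and in 5 member genes. In Ugt3a1 its reverse complement lies inside the longer motif. The Ugt2a3 window is at chr5:87337196-87337295 on the minus strand, with both copies in capitals.
Ugt2a3: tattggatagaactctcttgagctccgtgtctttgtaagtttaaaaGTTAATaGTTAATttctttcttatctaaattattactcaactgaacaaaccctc

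Liver was the brightest tissue for 20 of the 33 members that could be tested, followed by jejunum for 9, distal colon for 3 and ileum for 1. The same count was not made for all genes, so it has no background share. In a linear model fitted with limma, in which the 2 ages of a tissue stand in for replicates so that p-values measure only the spread between those arrays, 16 of the 37 members were higher in liver than in the mean of the 3 gut segments (adjusted p under 0.05 over 13995 genes and at least 2-fold), against 10.4% of all genes tested. Another 4 members were higher in gut, against 15.1% of all genes. All arrays at the floor were given the same value. Where both arrays of a tissue were at the floor, the spread behind the p-value is therefore understated. By class, 7 of 10 UGTs, 7 of 18 GSTs and 2 of 9 SULTs were higher in liver, and 0 UGTs, 1 GST and 3 SULTs were higher in gut. Both liver arrays lay above all 6 gut arrays for 17 tested members (24.9% of all genes) and below them for 3 (33% of all genes). The median difference of liver minus gut was 3.64 on the log2 scale for the 10 UGTs tested, 0.99 for 16 GSTs and -0.39 for 7 SULTs, beside -0.05 for all genes. Of the 37 members, 33 had a signal above the floor on at least 1 array and were tested. Gsto2, Gstt4, Sult1c1 and Sult2a2 stayed below the floor on all 10 arrays. Since whole tissues were measured, fewer cells of a type and less RNA per cell cannot be told apart.

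**Figure D1:**
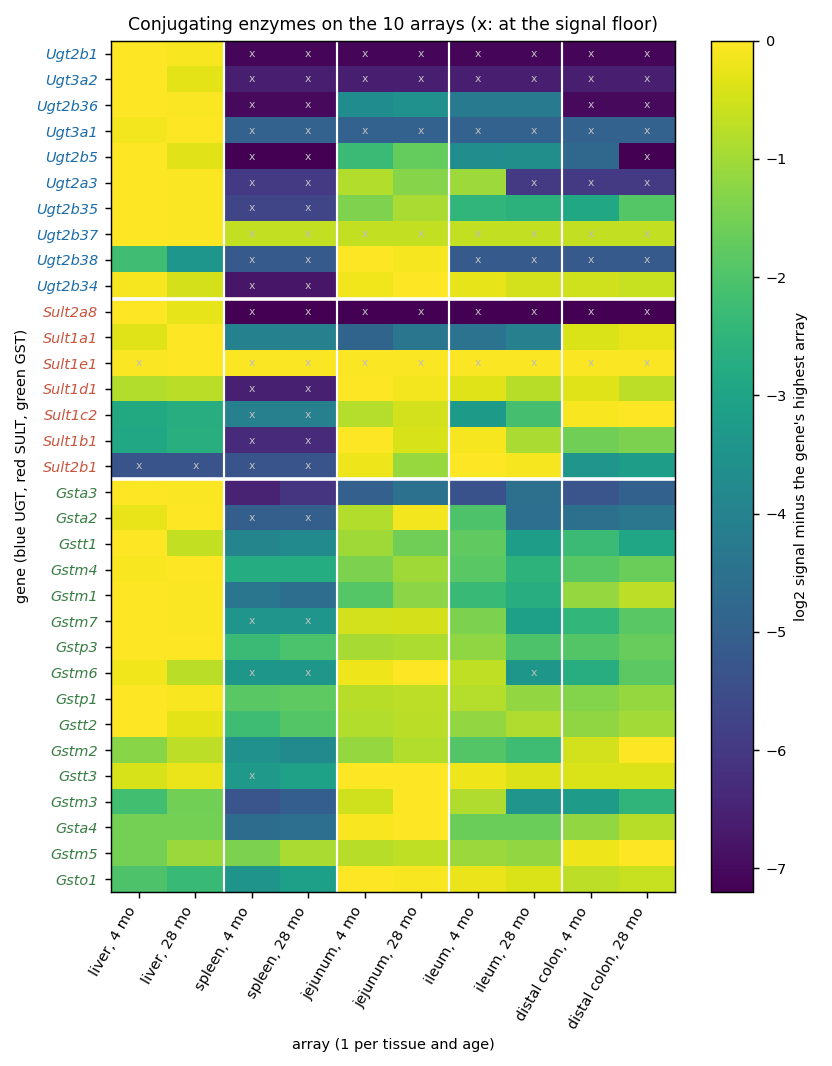
Signal of the 33 tested genes (rows, grouped by class) on the 10 arrays (columns), as log2 signal minus the gene's own highest array, so that colours compare arrays within a gene and not genes with each other. A cross marks a signal at the floor, as for Ugt2b1, Ugt3a1, Ugt3a2 and Sult2a8 on every array outside liver and for all UGTs on both spleen arrays.

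The UGTs that were bright in liver and below the floor elsewhere were Ugt2b1, Ugt3a1 and Ugt3a2, along with the dim Ugt2b37. Ugt2b1, a major hepatic form, read 14938 and 14303 units in liver at 4 and 28 months and between 26.4 and 34.1 units on the other 8 arrays. It was therefore at least 132-fold higher in liver than in gut (limma adjusted p = 1.15e-08). The other 8 arrays were set to the same floor value, so only the 2 liver arrays of this gene added spread to that p-value. Ugt3a2, whose family uses sugar donors other than UDP-glucuronate, read 10665 and 8706 units in liver and no more than 43.2 elsewhere, at least 87.1-fold. Ugt3a1 read 3063 and 3366 units in liver and no more than 73.6 elsewhere, at least 29.0-fold. Ugt2b37 reached 176 and 171 units in liver, close to the floor, and at most 30.2 elsewhere. With Sult2a8, these made 5 members above the floor at both ages in liver and in no other tissue, a pattern held by 2.14% of all tested genes.

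Another 4 UGTs were higher in liver but were also read in the upper part of the gut. Ugt2b36 gave 14259 and 13887 units in liver, 1108 and 1207 in jejunum, 770.2 and 739.7 in ileum and 93.8 and 55.9 in distal colon at 4 and 28 months, the last pair below the floor. Its liver signals exceeded the gut mean 30.7-fold, a lower bound for the colon part. Ugt2b5 gave 20248 and 16237 in liver, 4169 and 6209 in jejunum, 1599.8 and 1637 in ileum and 729 and 21.8 in distal colon. Both genes thus stepped down from jejunum to colon, and both were at the floor on the spleen arrays. Ugt2b35 gave 5719.8 and 5538 in liver, 2172 and 3029.7 in jejunum, 1032 and 959 in ileum and 763 and 1524 in distal colon, 4.02-fold above the gut mean (limma adjusted p = 0.000488). Ugt2a3, a form shared by liver and small intestine, gave 7025 and 6823 in liver, 3961 and 2841 in jejunum, 3355 and 86.0 in ileum and 20.9 and 22.9 in distal colon. Its liver-to-gut difference of 3.51 had a standard error (SE) of 1.01, the widest of all members, and its 2 ileum arrays differed at least 30.3-fold.

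Ugt2b34 was read at similar signals in liver and in all gut segments. It gave 11397 and 8861 units in liver, 10972 and 12139 in jejunum, 10050.3 and 8566 in ileum and 8416 and 7909.6 in distal colon, against 27.9 and 31.6 in spleen. The liver and gut arrays overlapped, and the log2 difference of 0.07 had a 95% interval of -0.19 to 0.34 (limma adjusted p = 0.61). Its second probe set showed the same flat pattern, with a difference of 0.06. Ugt2b38 was read in jejunum and liver. It gave 3958 and 3732 in jejunum and 854 and 373 in liver, while the ileum read 38.5 and 39.1 and the distal colon 28.7 and 30.2, both below the floor. Liver minus jejunum was -2.77 on the log2 scale, whereas Ugt2b5 and Ugt2b37, whose printed windows are near copies of its own, were brightest in liver. Against the mean of all 3 gut segments Ugt2b38 had no stable direction, since 4 of its 6 gut arrays were at the floor. The difference was 0.64 (limma adjusted p = 0.0691), and -0.59 with a higher floor, at percentile 75 of all signals. Because the Ugt2b genes are close copies, some signal could be shared between their probe sets.

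**Figure D2:**
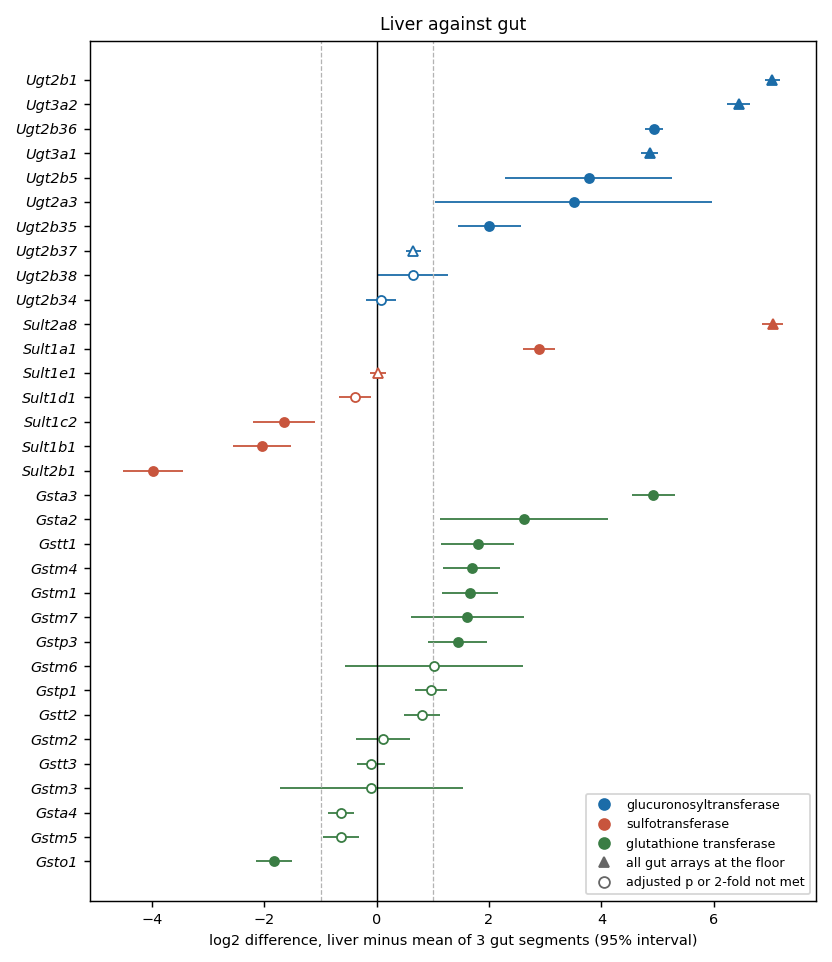
Log2 difference of liver minus the mean of jejunum, ileum and distal colon for the 33 tested genes, with the 95% interval from the model over 10 arrays. Filled points met both the adjusted p and the 2-fold rule, triangles mark genes with all 6 gut arrays at the floor, and the dashed lines mark 2-fold. Points spread from -3.98 for Sult2b1 to 7.05 for Sult2a8. Where both arrays of a tissue were at the floor, the interval understates the spread.

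The sulfotransferases held members at each end of the scale. Sult2a8, a hydroxysteroid and bile acid sulfotransferase, read 16062 and 13425 units in liver and at most 36.4 on any other array, at least 133-fold above gut. Sult2b1, which sulfates cholesterol and pregnenolone, had the opposite pattern. It was below the floor in liver (76.3 and 61.6 units) and spleen (66.1 and 61.7) and read 3885 and 2059 in jejunum, 4418 and 4127 in ileum and 405 and 483 in distal colon. Its gut signals were 15.8-fold above the floor value assigned to liver, a lower bound (limma adjusted p = 2.15e-05). Its liver and spleen arrays, all at the floor, had no spread between ages in that fit. It was the only member above the floor at both ages in all 3 gut segments and in neither liver nor spleen, as were 2.18% of all tested genes.

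Sult1b1 and Sult1d1 are neighbours on chromosome 5 and were high in the small intestine. Sult1b1, known for sulfating thyroid hormones and small phenols, gave 8878 and 6615 in jejunum, 8303 and 4733 in ileum, 2994 and 3325 in distal colon and 1196 and 1386 in liver. All 6 gut arrays were above both liver arrays, by 4.14-fold on average (limma adjusted p = 0.000318). Sult1d1, which sulfates catecholamines in the mouse, gave 10526 and 9626 in jejunum, 8244 and 6101 in ileum, 8208 and 6385 in distal colon and 5979 and 6272 in liver. Here liver and gut overlapped, and the difference of -0.39 (SE 0.12) was below 2-fold. Both genes were at the floor in spleen, at 24.6 to 25.6 units.

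Sult1a1 and Sult1c2 had a colonic component. Sult1a1, the main phenol sulfotransferase, read 8611 and 11012 units in liver and 8254 and 9404 in distal colon, but only 373 and 535 in jejunum and 501 and 662 in ileum. Its call as higher in liver than gut (2.89, SE 0.12) thus rested on the small intestine. The liver-to-colon difference was 0.14, and those 4 arrays overlapped. Sult1c2 was highest in distal colon, at 1766 and 1847 units, then in jejunum at 1059 and 1326, and was low in ileum at 192 and 426 and in liver at 258 and 283. It was called higher in gut (3.14-fold, limma adjusted p = 0.00116), although the 4-month ileum array lay below both liver arrays. Sult1e1, the oestrogen sulfotransferase, was above the floor on 1 array alone, the 28-month liver at 114 units, beside 36.1 at 4 months. Its gut arrays read between 30.5 and 84.0 units.

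Among the glutathione transferases the alpha class ranged from Gsta3, with the largest liver-to-gut difference of the GSTs, to Gsta4, which was brightest in jejunum. Gsta3, known in mice for conjugating aflatoxin epoxide, gave 11143 and 10787 units in liver, 349.7 and 483 in jejunum, 269 and 481 in ileum, 282 and 354 in distal colon and 123 and 163 in spleen. All liver signals were above all gut signals, 30.4-fold on average (limma adjusted p = 2.32e-06), and its second probe set was above the floor in liver alone. Gsta2 gave 3039 and 3578 in liver, 1996 and 3303 in jejunum, 889.7 and 151 in ileum and 155 and 176 in distal colon. It was called higher in liver (2.62, SE 0.61), but the 28-month jejunum exceeded the 4-month liver. Gsta4, which clears the lipid peroxidation product 4-hydroxynonenal, read 10775 and 11399.5 units in jejunum, against 3994 and 4014 in liver, 3693 and 3736 in ileum and 5046 and 6689 in distal colon. Liver and ileum overlapped for Gsta4, and the difference from gut of -0.63 was below 2-fold.

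The Gsta3 promoter is shown because its upstream bases hold the core letters of an antioxidant response element, TGACNNNGC, the sequence through which Nrf2 is known to act on this class. It was also chosen after the promoters had been read. The same letters were found on either strand in 10.2% of all promoters. Among members they were in 3 of 43 promoters (6.98%), those of Gsta3, Gstm5 and Gstm7, where some genes have several promoters. The window holds bases 150 to 51 before the start, at chr1:21240435-21240534 on the plus strand, with the match in capitals.
Gsta3: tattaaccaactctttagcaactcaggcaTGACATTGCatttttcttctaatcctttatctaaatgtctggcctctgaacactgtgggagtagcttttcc

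The 7 mu-class genes, adjacent on chromosome 3, did not share a tissue pattern. Gstm1, the most studied mu form, gave 10966 and 10708 units in liver, 2936 and 4580.2 in jejunum, 2143 and 1684 in ileum and 5016 and 6619 in distal colon, with both liver arrays highest (3.16-fold over gut). Gstm4 gave 1586 and 1653 in liver, 615 and 807 in jejunum, 464 and 284 in ileum and 448 and 538 in distal colon, 3.23-fold. Gstm7 gave 1209 and 1173 in liver, 859 and 876 in jejunum, 449 and 138 in ileum and 224 and 338 in distal colon, 3.05-fold (limma adjusted p = 0.0154). These 3 were the mu forms called higher in liver. Gstm3 was brightest in the small intestine, with 6545 and 9457 in jejunum and 5238 and 873 in ileum, against 2083 and 3256 in liver and 987 and 1684 in distal colon. Gstm6 gave 1051 and 697 in liver, 1022 and 1171 in jejunum, 733 and 94.0 in ileum and 177 and 331 in distal colon, and its 95% interval for liver minus gut ran from -0.57 to 2.61. Gstm2 peaked in distal colon at 1909.8 and 2695 units, against 1114 and 1638 in liver, 1229 and 1509 in jejunum and 709 and 568 in ileum. Gstm5 did so too, with 2667 and 3052 in distal colon and 1067 and 1451 in liver. It read 1791 and 1911 in jejunum, 1429 and 1352 in ileum and 1132 and 1633 in spleen. The Gstm genes are similar enough that probe sets whose names end in _s_at or _x_at, used here for Gstm3 and Gstm1, may read more than 1 of them.

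The results for 2 of these genes depended on the 4-month ileum array. Without it, an alternative added after the data had been seen, Gstm3 changed from -0.10 (limma adjusted p = 0.93) to 0.42 with an adjusted p of 0.0349, and Gstm6 from 1.02 (adjusted p = 0.226) to 1.49 with an adjusted p of 0.0112. The count of members called higher in liver was 18 without that array, the additions being Gstm6 and Gstp1. Gstp1 moved across the 2-fold line, from 0.96 to 1.04 (limma adjusted p = 0.000353), while Gstm3 stayed under it. Taken at each age, liver minus gut for Gstm3 was -0.63 at 4 months and 0.44 at 28 months, and for Ugt2a3 it was 2.63 and 4.39, differences between single arrays that were not tested.

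The pi, theta and omega forms also differed among themselves. Gstp1, the pi form, gave 36773 and 35182 units in liver and 10278 and 10702 in spleen, with gut arrays between 14615.0 and 22155.5. Its difference of 0.96 (SE 0.11) was just under 2-fold. Gstp3 gave 783 and 777 in liver and 193 to 422 in gut, 2.71-fold. Gstt1, the theta form that acts on small halogenated compounds, gave 9491 and 6005 in liver, 4653 and 3232 in jejunum, 2786 and 1061 in ileum and 1947 and 1213 in distal colon, 3.48-fold. Its chromosome 10 neighbours differed, with Gstt2 1.75-fold higher in liver and Gstt3 at a difference of -0.10 (95% interval -0.34 to 0.15). Gstt3 gave 822 and 959 in liver, 1104 and 1115 in jejunum, 980.1 and 863 in ileum and 843 and 832 in distal colon. Gsto1, an omega form with thioltransferase and dehydroascorbate reductase activity, was the GST higher in gut. It gave 16091 and 15324 in jejunum, 14025 and 12147 in ileum and 9709 and 10533 in distal colon against 3959 and 3244 in liver, 3.56-fold (limma adjusted p = 6.62e-05).

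In spleen 13 of 16 tested GSTs were above the floor at 1 age or both, but no UGT and only 1 SULT. At both ages 19 of the 37 members were at the floor in spleen while above it elsewhere, as were 14.8% of all tested genes. These included all 10 UGTs and all tested SULTs other than Sult1a1. The 13 members above the floor on all 10 arrays were Sult1a1 and 12 GSTs, and 69.1% of all tested genes shared that pattern.

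With age, the members differed most in ileum. There 6 members were at least 2-fold lower at 28 than at 4 months, where 1.66% of all measured genes were, and 1 was at least 2-fold higher, where 0.888% were. The lower members were Ugt2a3, Gstm6, Gstm3, Gsta2, Gstm7 and Gstt1, and the higher one was Sult1c2. In liver 1 member was 2-fold lower and none higher (background 0.167% and 1.29%), and in distal colon 1 was lower and none higher (0.526% and 0.51%). In spleen no member passed 2-fold, where 0.528% of all genes were higher and 0.411% lower by that margin. None did in jejunum either, where 0.252% were higher and 1.02% lower. Counting any tissue, 9 of 33 measured members (27.3%) passed 2-fold, beside 5.43% of all genes. With 1 array per group these ratios have no replicate check and no p-value. Where a gene had several probe sets, their log2 ratios had a median SD of 0.11 to 0.14 by tissue. This SD covers disagreement between probe sets on the same 2 arrays. It does not cover error shared by a whole array or differences between animals.

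**Figure D3:**
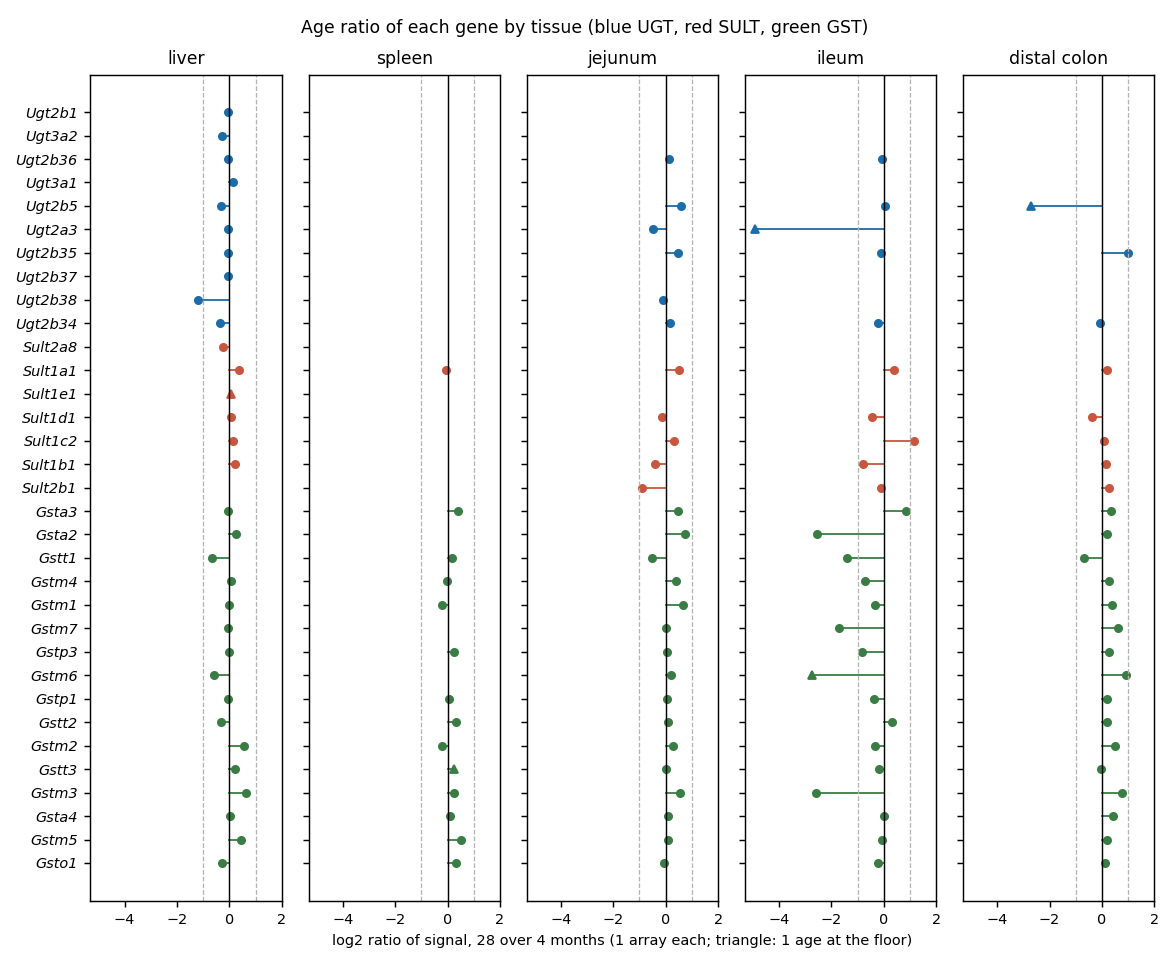
Log2 ratio of 28 over 4 months for each gene in each tissue (1 array per age), blank where both ages were at the floor, with triangles where 1 age was at the floor and dashed lines at 2-fold. In ileum 6 genes extend past the left dashed line, to -4.92 for Ugt2a3, while liver, spleen and jejunum hold 1 such gene in all, Ugt2b38 in liver.

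Ugt2a3 showed the largest ratio of any member. It read 3355 and 86.0 units in ileum, the second value below the floor, so that it was at least 30.3-fold lower at 28 months. In liver it was level (7025 and 6823) and in jejunum it read 3961 and 2841. Of the 7 mu-class genes 3 were at least 2-fold lower in ileum, namely Gstm6 (-2.73, a bound of at least 6.62-fold), Gstm3 (-2.59) and Gstm7 (-1.71). All 7 ratios were below 0 there, as were 5767 of 12504 for all genes, but Gstm1 and Gstm2 gave only -0.35 and -0.32, and Gstm5 at -0.08 lay within the spread between probe sets. In jejunum and in distal colon all 7 ratios were above 0, as were 6891 of 12324 and 6846 of 12360 for all genes, up to 0.64 for Gstm1 in jejunum and 0.90 for Gstm6 in distal colon. These signs were the same with arrays scaled to equal medians and with quantile normalisation. In jejunum, however, Gstm5 at 0.09 and Gstm7 at 0.03 lay within the spread between probe sets (median SD 0.11). The second Gstm3 probe set gave -1.99 in ileum. The second Gstm7 probe set read between 138 and 224 units on all 10 arrays. It gave -0.33 in ileum, -0.02 in jejunum and -0.21 in distal colon, a sign opposite to the first in jejunum and colon.

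Gsta2 went from 889.7 to 151 units in ileum, a log2 ratio of -2.56, and from 1996 to 3303 in jejunum, a ratio of 0.73. Gstt1 was lower at 28 months in liver, jejunum, ileum and distal colon, with ratios of -0.66, -0.53, -1.39 and -0.68, and 0.17 in spleen. Sult1c2 went the other way in ileum, from 192 to 426 units (1.15). In all, 20 of 26 measured members were lower in ileum at 28 months, with a median log2 ratio of -0.27, beside 0.03 for all genes. In distal colon 19 of 24 were higher (median 0.20, all genes 0.03), and in jejunum 20 of 27 (0.10, all genes 0.03). Of 14 measured in spleen, 10 were higher (0.20, all genes 0.01). In liver 13 of 32 were higher (-0.04), beside 5602 of 12001 for all genes (-0.01). The liver direction turned with arrays scaled to equal medians, to 21 of 32 members and 7122 of 12097 genes higher.

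All 6 members that were lower in the old ileum had a higher signal in jejunum than in distal colon. Of 11 members measured in ileum whose signal was at least 2-fold higher in jejunum than in distal colon (mean of both ages), 6 were at least 2-fold lower in ileum at 28 months, against 22.1% of 774 such genes overall. Of the other 15 members measured in ileum none was, against 0.315% of 11730 genes. The jejunum-to-colon difference uses no ileum array. It was 4.92 on the log2 scale for Ugt2a3, 3.96 for Gsta2, 2.61 for Gstm3, 2.17 for Gstm6, 1.66 for Gstm7 and 1.34 for Gstt1. Other members with such a gradient were measured in ileum and were not 2-fold lower there. Ugt2b5 had a gradient of 4.16 and an ileal age ratio of 0.03, Ugt2b36 had 3.39 and -0.06, Sult2b1 had 2.68 and -0.10, and Ugt2b35 had 1.25 and -0.11. The Ugt2b5 gradient includes a 28-month colon array at the floor (21.8 units, beside 729 at 4 months). For Ugt2b36 and Ugt2a3 both colon arrays were at the floor. Sult1b1, with a gradient of 1.28, was nearer the threshold at -0.81.

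**Figure D4:**
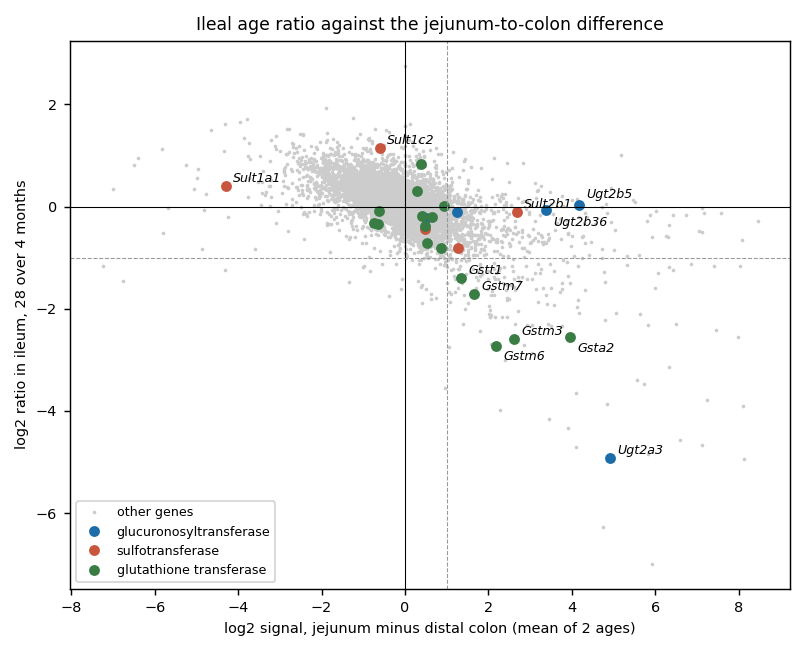
Log2 ratio of 28 over 4 months in ileum against the log2 difference of jejunum minus distal colon, for members (coloured by class) and all other genes measured in ileum (grey). The 6 lower members lie below the horizontal dashed line and right of the vertical one, and Ugt2b5, Ugt2b36 and Sult2b1 lie far right with an ileal ratio near 0.

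Markers of intestinal position also differed between the 2 ileum arrays. Of 10 genes listed as upper small intestinal markers, 8 were at least 2-fold lower in ileum at 28 months (median -4.61), and their summed signal went from 93660.4 to 14002 units, while in jejunum it was 104309 and 76366. Lct, the lactase gene, went from 14054 to 92.1 units in ileum, and Fabp1 from 31032 to 1017. All 6 ileal markers were higher at 28 months (median 0.87, summed signal 32325 and 60246). Colon markers were not higher as a list. Of 5 measured in ileum, 4 had a ratio below 0, 2 of them at least 2-fold lower (median -0.83, summed signal 12012.5 and 10121.5). Markers of cell types differed in the same pair of arrays. Of 12 enterocyte markers 5 were at least 2-fold lower at 28 months and 1 higher (median -0.73, summed signal 194592 and 122231). All 7 smooth-muscle markers had a ratio above 0, 1 of them past 2-fold (median 0.84, summed signal 24499.6 and 40433). Over all probe sets, without the floor, the 4-month ileum array correlated with the 4-month jejunum at r = 0.986 and with the 28-month ileum at r = 0.987. This is a description across probe sets that share an array. The part of position along the gut and of these cell types in the ileal ratios of the members was not tested.

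In liver the member past 2-fold was Ugt2b38, with 854 and 373 units (-1.19), while the other 9 UGTs had ratios between -0.36 and 0.14. Gstt1 was next, with 9491 and 6005 units (-0.66), and Gstm6 gave -0.59. On the upper side Gstm3 gave 0.64 and Gstm2 0.56. In the same pair of liver arrays 5 of 14 acute-phase genes were at least 2-fold higher at 28 months (median 0.71, summed signal 186478 and 282608), as were 3 of 8 macrophage markers (median 0.91, summed signal 10298 and 19653.5), and none of either list was lower by that margin. The 9 hepatocyte markers had a median ratio of -0.01 and none passed 2-fold. Since several of these enzymes differ between the sexes in mouse liver, lists of sex-biased liver genes were read as well. None of 9 male-biased genes (median -0.14) and none of 6 measured female-biased genes (median -0.31) passed 2-fold. These lists include the male-biased Cyp7b1 and Slco1a1, with liver-to-gut differences of 6.80 and 6.64, and the female-biased Cyp2b9 and Hao2, with 3.04 and -2.57. The part of these cell and inflammatory markers in the liver ratios was not tested.

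In distal colon Ugt2b5 went from 729 to 21.8 units, at least 6.59-fold lower, while Ugt2b35 went from 763 to 1524 (1.00, just inside 2-fold). Single small-intestinal genes, chosen after their values were seen, read higher on the 4-month colon array. Alpi, an enterocyte phosphatase, read 971.5 units there and 82.4 at 28 months, and Slc51a, an ileal bile acid transporter subunit, read 614 and 63.6. Over the whole lists, the 12 enterocyte markers summed to 16684 and 12719 units in distal colon, with 2 of 7 measured genes at least 2-fold lower and 1 higher (median -0.03), and the 6 ileal markers summed to 1734 and 920.5. All 7 smooth-muscle markers had a ratio below 0 in distal colon, none past 2-fold (median -0.52, summed signal 101114 and 71158). All 4 measured B-cell markers had a ratio above 0, 2 of them past 2-fold (median 0.97, summed signal 1128 and 2323). The part of these markers in the colonic ratios of Ugt2b5 and the other members was not tested. In jejunum the largest ratios were -0.92 for Sult2b1 and 0.73 for Gsta2. In the same jejunal arrays 4 of 12 enterocyte markers were at least 2-fold lower at 28 months (summed signal 192232 and 137838), and their part in the jejunal ratios was not tested.

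Across the 5 tissues no member passed the test for age. In the limma model with tissue as a block, 0 of 13995 genes passed an adjusted p of 0.05, and 971 (6.94%) had an unadjusted p under 0.05. Among members 3 of 33 did, namely Gsta3 (0.40, higher in 4 of 5 tissues), Sult1a1 (0.28, higher in 4 of 5) and Gstt1 (-0.62, lower in 4 of 5), with limma adjusted p of 0.655, 0.663 and 0.679.

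Genes that supply cofactors, carry the products and regulate the enzymes were read from lists drawn up with earlier results known. Differences below are liver minus gut on the log2 scale unless a fold is given, and are lower bounds where a tissue was at the floor. Counts of genes higher or lower in liver use the rule applied to the members. By that rule 10.4% of all tested genes were higher in liver and 15.1% lower. No list was tested as a set. For glucuronidation, 2 of 7 genes were higher in liver than in gut and 0 lower, the former being Slc35d1, which carries the sugar donor into the endoplasmic reticulum (3.18-fold), and Ugp2, which makes UDP-glucose (2.13-fold). Slc35d1 was lower in distal colon at 28 months (1235 and 573 units), as was Ugt8a, a galactosyltransferase of the same superfamily (278 and 31.5 units, the older array below the floor). For sulfation, 3 of 9 tested genes were higher in liver and 3 lower. The sulfate transporters Slc26a1 and Slc26a2 lay at opposite ends, with 4.00 and -4.27 on the log2 scale. In ileum Bpnt1, which degrades the spent sulfate donor, went from 6281 to 2755 units with age, and Suox, sulfite oxidase, from 3531 to 7799.

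For glutathione, 6 of 12 tested genes of its synthesis and recycling were higher in liver and 2 lower. Cbs, which feeds cysteine synthesis, read 2503 and 2928 units in liver and 221 and 201 in jejunum, and Dpep1, a dipeptidase that breaks down glutathione conjugates, was at least 22.5-fold higher in gut. With age Dpep1 and Anpep were at least 2-fold lower in jejunum (-1.26 and -1.53), and Dpep1 in distal colon (-1.52). Of 14 other glutathione transferases and relatives 3 were higher in liver and 6 lower, led by the microsomal Mgst2 (-5.90) and the chloride channel relative Clic5 (-4.70). Gstk1, the mitochondrial and peroxisomal kappa form, was lower in the old ileum (5179.6 and 2073 units). Of 10 enzymes that attach other groups 5 were higher in liver and 0 lower, led by the methyltransferase Gnmt (7.56) and the glycine transferase Glyat (6.49). Nnmt, nicotinamide methyltransferase, went from 117 to 1089 units in liver with age, and Tpmt, thiopurine methyltransferase, from 569 to 275 in ileum.

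Of 13 sensors and regulators 5 were higher in liver and 2 lower. Nr1i3, the nuclear receptor CAR that induces many conjugating enzymes, read 1817 and 1806 units in liver, 834 and 869.6 in jejunum, 568 and 114 in ileum and 93.9 and 113 in distal colon. Its ileal log2 ratio was -2.32, with liver and jejunum level, and no other regulator of the list passed 2-fold with age in any tissue. Cdx2, the intestinal homeobox factor, stood at -3.60 for liver minus gut. Of 12 tested conjugate transporters 6 were higher in liver and 2 lower, led by the uptake carriers Slco1b2 (7.11) and Slco1a1 (6.64). The export pump Abcc2, which moves glucuronides and glutathione conjugates, read 1405 and 664 units in ileum, and Abcb1a read 4452 and 11198 there. Of 10 Nrf2 target genes outside conjugation 4 were higher in liver and 4 lower, with Gpx2 at -5.32 and Me1 at 3.01. With age Hmox1 was higher (1.10) and Me1 lower (-1.22) in liver, and Nqo1 was lower in distal colon (-1.11).

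Liver, spleen and gut as a whole carried markers of their own. All 9 hepatocyte markers were higher in liver, and all 7 goblet-cell and all 7 smooth-muscle markers were higher in gut. Other gut lists were less uniform. Of 12 enterocyte markers 6 were higher in gut and 4 in liver. The counts were 4 and 1 of 10 for upper small intestine, 3 and 0 of 6 for ileum and 5 and 1 of 9 for colon. Summed B-cell markers read 31923 and 25534 units in spleen and at most 2323 elsewhere. The 8 pancreatic acinar genes read high outside their own tissue. Their summed signal was 70853 and 71149 units in jejunum, 14192 and 16011 in distal colon, and 1225 and 1493 in ileum at 4 and 28 months. In spleen it was 45235 and 1416, with 8 of 8 genes at least 2-fold lower at 28 months, and no member passed 2-fold there. Their part in the liver-to-gut differences was not tested. With both jejunum arrays left out, 18 members were higher in liver and 4 in gut. Of 5 kidney tubule markers 4 were below the floor on every array. Scale factors lay between 2.42 and 2.57, and 48.9% to 50.9% of probe sets were above the floor on each array.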

How the data were processed

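Pooled RNA of 5 tissues at 2 ages was read on 10 arrays, 1 per group. The authors deposited log2 signals, 1 per probe set. The submitters' processing notes name MAS5 and affy with no version or role. With the normalisation method not given in the sources used here, base 2 was inferred from the range of values. Depth has no meaning for arrays, so their number limits the precision.

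Signals were taken out of the log, scaled to a mean of 500 after trimming 2% at each end, floored at 111 units (percentile 50) and returned to log2. A gene was read by its brightest probe set on average, and was tested where at least 1 array was above the floor. Of the probe sets 34958 named 1 gene and 932 several. Liver was compared with the 3 gut segments, and age across tissues, with limma 3.58.1 in R 4.3.3 over all 10 arrays, with tissue and age as terms (4 residual degrees of freedom) and Benjamini-Hochberg adjustment over 13995 genes. Age ratios within a tissue have no test. A gene counts as measured in a tissue when either age is above the floor. The rule was tested on simulated data.

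The members, the gene lists and the rules for naming were chosen with earlier results of these data known. All 37 members were read. Liver and gut signals are given for the 6 members per class with the largest liver-to-gut difference in each direction and for every member past 2-fold with age. From each pathway list the text names up to 4 genes past 2-fold with age and the 2 with the largest liver-to-gut difference. Of 239 list symbols 216 were matched. Alternatives were other floors, scalings, probe-set rules, fold thresholds and filters and leaving out tissues, and, added after the data had been seen, leaving out the 4-month ileum array. Python 3.11.15 with numpy 2.4.6, pandas 2.3.3 and matplotlib 3.10.9 was used.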

Additional observations from a re-analysis of the deposited data

Results flagged for a closer look

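In 4 members the age ratio pointed in opposite directions in different tissues by more than 1.5-fold each way. The difference between tissues was not tested, since each rests on 1 array per age. The share of all genes that meet this rule was not counted. In each of the 4 the largest ratio was in ileum. Upper small intestinal markers there summed to 93660.4 units at 4 months and 14002 at 28 months, and their part was not tested. Gsta2 had a log2 ratio of 0.73 in jejunum and -2.56 in ileum. Gstm3 had 0.64 in liver and 0.77 in distal colon, but -2.59 in ileum. Gstm6 had 0.90 in distal colon, -0.59 in liver and -2.73 in ileum, the last a bound. Gstm7 had 0.60 in distal colon and -1.71 in ileum.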

How the results depend on the processing

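The count of members higher in liver than in gut lay between 11, with a minimum of 4-fold, and 19, with no minimum fold, and it was 13 without distal colon. The count higher in gut was 2 and 7 with those minimums and 4 or 5 with all other alternatives run. For age, the liver count of 1 became 2 with the floor at percentile 25 or with no floor, 0 with the floor at percentile 75 or from 3-fold, and 4 from 1.5-fold. The ileum count of 7 became 3 with the floor at percentile 75 and 11 from 1.5-fold. The distal colon count of 1 became 0 with the floor at percentile 75, 2 with equal medians or quantile normalisation, and 6 from 1.5-fold, and the jejunum count of 0 became 3 from 1.5-fold. No member passed the test of age across tissues with any alternative. Liver minus gut reversed for Gstm3, to 0.42 without the 4-month ileum array, and for Ugt2b38, to -0.59 with the floor at percentile 75, while it passed the adjusted p at 1.42 with the floor at percentile 25, at 1.45 with no floor and at 0.70 with quantile normalisation. With genes below the floor on every array kept, Gstm7 and Ugt2a3 lost their call (limma adjusted p = 0.0563 and 0.0803). The causes were not tested. Age was compared with tissue as a block, which pairs the arrays of each tissue, and no fit without that block was run.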

Other observations

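Probe sets shared by several genes were left out of the members, and 3 of them read 8 Ugt1a genes at once, among them Ugt1a1, the bilirubin-conjugating form. Their signals ranged from 12452 to 22429 units in liver at 4 months and from 12805 to 21604.5 at 28 months. In jejunum they ranged from 8161 to 20170.4 and from 9236 to 21465.5, and in ileum from 6717 to 17937 and from 4892 to 13998. In distal colon they ranged from 3849 to 12174 and from 2884 to 11395, and in spleen they stayed under 1038. Their age ratios lay between -0.56 and -0.36 in ileum, between -0.42 and -0.10 in distal colon and between 0.09 and 0.18 in jejunum. Which Ugt1a gene gives the signal cannot be read from these probe sets.

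A probe set shared by Gsta1, Gsta2 and a predicted relative had a gut pattern unlike the probe set of Gsta2 alone. It read 1254 and 1554 units in liver, 18021 and 20638 in jejunum, 8215 and 4025 in ileum and 980.1 and 1436 in distal colon at 4 and 28 months. Its liver-to-gut difference was -1.86 on the log2 scale, against 2.62 for Gsta2. Its ileal age ratio was -1.03. A probe set shared by Ugt2a1 and Ugt2a2, forms of the olfactory lining, was below the floor on all 10 arrays.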
